A study of Homo sapiens with 16 samples.

Results

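The 36 genes described here are the unfolded protein and heat shock genes of 2 T-cell acute lymphoblastic leukaemia lines, taken from a named list out of 64252 gene identifiers in the tables. They comprise 21 genes of the endoplasmic reticulum (ER), 12 of the cytosol and 3 of mitochondria. All 36 passed the filter on low counts in each of the 4 knockdown comparisons. The list was made by name, with no measured value in the rule, but it was proposed with results of these data known.

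Jurkat and 6T-CEM, both established lines, carried short hairpin RNAs: sh-NC, a control, or sh-SH2D1A, which targets SH2D1A, the gene that encodes the SAP adaptor that docks on SLAM family receptors in T cells. Jurkat was sampled on day 8 and on day 10, and 6T-CEM on day 5 and on day 10. Each line and day had both hairpins in 2 libraries each, or 16 libraries in 8 groups. The labels give no event from which the days count and no statement that the libraries of a group came from separate cultures, so the tests measure the spread between libraries, which may be technical. Each line and day was a table of its own, so day cannot be told apart from any difference between tables. Where the libraries of groups are said to be apart or not to overlap, this describes the same libraries that entered the tests. It adds no support to a call, and the share of such genes over all genes was not computed.

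Secretory and membrane proteins fold in the ER with the help of HSPA5 (BiP) and its co-chaperones, lectin chaperones and disulfide isomerases. When unfolded proteins gather there, the sensors ERN1 (IRE1), ATF6 and PERK start the unfolded protein response, in which IRE1 splices the messenger RNA of XBP1 and ATF6 is cut to an active factor. In the cytosol HSF1 drives the heat shock genes, and mitochondria hold a chaperone set of their own. Gene counts hold the total XBP1 message and cannot show its spliced form, and in RNA from whole cultures fewer cells of a type and less RNA per cell cannot be told apart.

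Library totals ranged from 27217899 to 33788024 counts, and 3 counts, the most that a count of 0 allows, came to between 0.0888 and 0.110 CPM, the usual count scale relative to the library total, here scaled by the TMM factors of edgeR. SH2D1A, the targeted gene, had 163 and 175 CPM in the sh-NC libraries against 53.9 and 49.4 in the sh-SH2D1A libraries of Jurkat day 8, and 176 and 204 against 60.1 and 65.4 at day 10. In 6T-CEM it had 189 and 201 against 55.5 and 62.7 CPM at day 5, and 156 and 154 against 80.8 and 74.5 at day 10. No sh-SH2D1A library reached the level of an sh-NC library. The fall was smaller in 6T-CEM at day 10 than at day 5, by a log2 difference of 0.72 ± 0.13 (standard error; edgeR, adjusted p = 0.0181), and smaller in 6T-CEM than in Jurkat at day 10 (adjusted p = 0.0405). By the mean over all 16 libraries of both lines, all 8 T lineage markers reached 1 CPM. So did 1 of 4 B cell, 2 of 4 plasma cell, 1 of 4 myeloid and 1 of 4 epithelial markers. Summed levels per library were 1120 to 2400 CPM (T lineage), 16.3 to 74.5 (B cell) and 91 to 260 (plasma cell). They were 0.955 to 2.87 CPM for myeloid and 1.11 to 5.73 for epithelial markers. Single libraries could depart from the means: CD2 had 0.991 CPM in 6T-CEM day 10 sh-SH2D1A replicate 1. The plasma cell marker SDC1, below 1 CPM by its mean, had 1.76 in Jurkat day 8 sh-SH2D1A replicate 1. The sh-SH2D1A libraries of 6T-CEM at day 5 differed most from each other: the median absolute log2 ratio between them over the 36 genes was 0.215, against 0.0377 to 0.111 in the other 7 groups.

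The letters of known stress elements in the promoters differed by compartment. The genes were listed for known parts in the same responses, so this contrast is no independent result. In the RefSeq promoter table of GRCh38.p14, with 250 bases before to 50 after each start, 34 of the 36 genes had an entry (not PDIA3 and HSF1). The ER stress element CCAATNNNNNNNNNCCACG, through which ATF6 and XBP1 are known to act, or the ER stress element II ATTGGNCCACG, was found on either strand in 10 of 20 ER genes (50%), in 0 of 11 cytosolic and 0 of 3 mitochondrial genes, and in 44 of 27305 genes of the table (0.161%). Form II was added to the search after the files were seen, and holds 3 of the 10. The form planned before it, CCAAT and CCACG 1 base apart, matched 0 of 20 ER genes. The heat shock element TTCNNGAANNTTC, 3 units of the site of HSF1, was found on either strand in 0 of 20 ER genes, 4 of 11 cytosolic genes (36.4%), 1 of 3 mitochondrial genes and 166 of 27305 genes (0.608%). Matches of different elements did not overlap in these genes, and a match describes the letters of the window and nothing more. Only exact letters were searched, so a gene without a match may still hold a site with other letters or outside the window.

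The stretches below carry such matches in genes on which the results turn, read 5′ to 3′ on the strand of the gene, with the fixed letters of the element in capitals. HSPA5, SDF2L1, CALR and HSP90B1 are the ER genes with an element that rose in Jurkat at day 8, and XBP1 and HYOU1 have one and did not rise. They lie at chr9:125241364-125241453 (HSPA5, minus strand), chr22:21642092-21642151 (SDF2L1, plus), chr19:12938369-12938428 (CALR, plus), chr12:103930315-103930344 (HSP90B1, plus), chr22:28800598-28800649 (XBP1, minus) and chr11:119057265-119057400 (HYOU1, minus).
HSPA5: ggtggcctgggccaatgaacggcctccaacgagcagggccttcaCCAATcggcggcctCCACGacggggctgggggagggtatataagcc
SDF2L1: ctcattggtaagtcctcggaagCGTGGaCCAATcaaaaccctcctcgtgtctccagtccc
CALR: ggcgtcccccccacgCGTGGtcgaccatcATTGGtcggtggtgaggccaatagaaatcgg
HSP90B1: tgggtgCGTGGtgcggcgcgATTGGtgggt
XBP1: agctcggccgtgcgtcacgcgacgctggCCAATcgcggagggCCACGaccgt
HYOU1: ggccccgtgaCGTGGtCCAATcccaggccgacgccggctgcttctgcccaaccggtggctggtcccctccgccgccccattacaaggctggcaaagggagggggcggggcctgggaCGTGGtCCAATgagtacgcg
The element of HSPA5 spans bases -66 to -48 before the start, that of XBP1 bases -52 to -34, and HYOU1 holds 2 of form II. HSP90B1 has a further match at bases -194 to -176, outside the stretch.

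Of the 5 cytosolic and mitochondrial genes with a heat shock element 4 follow in the same way, at chr11:123062346-123062374 (HSPA8, minus), chr6:44247768-44247852 (HSP90AB1, plus), chr14:102087112-102087141 (HSP90AA1, minus) and chr2:197500061-197500090 (HSPD1, minus).
HSPA8: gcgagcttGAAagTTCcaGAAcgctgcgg
HSP90AB1: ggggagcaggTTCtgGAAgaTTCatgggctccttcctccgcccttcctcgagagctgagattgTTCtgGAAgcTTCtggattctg
HSP90AA1: ggagggttcTTCcgGAAggTTCgggaggct
HSPD1: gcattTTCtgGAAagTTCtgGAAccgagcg
HSP90AB1 holds 2 separate elements, HSPA8 has a further match at bases -55 to -43, and in HSPD1 2 matches overlap into a longer run of units. All 10 stretches lie before the start used by the table, and those of HSP90B1, HSPA8, HSP90AA1 and HSPD1 also fall within annotated exons, the others in none. All 5 cytosolic and mitochondrial genes with an element (these 4 and DNAJA1) rose in Jurkat at day 8. So did 4 of the 9 tabled ones without an exact match in their window (HSPA4, HSPH1, HSPA9 and HSPE1). HSPE1 counts as without by its window alone, since the stretch of HSPD1 lies within the annotated span of HSPE1 (chr2:197499994-197503457, plus). Among ER genes 4 of 10 with an element rose there, and of the 10 without an exact match MANF rose and EDEM1 fell. These counts stand side by side with no test.

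In Jurkat at day 8, chaperones of all 3 compartments were higher with sh-SH2D1A. At an adjusted p under 0.05 in edgeR's quasi-likelihood test, 14 of the 36 genes rose and 1 fell, where 5.23% of all genes tested rose and 7.13% fell. By compartment 5 of 21 ER genes, 6 of 12 cytosolic genes and 3 of 3 mitochondrial genes rose. The median log2 change was -0.02 over the ER genes and 0.27 over the 15 cytosolic and mitochondrial genes, beside 0.00 over all genes tested. The same libraries had lower T lineage genes: 6 of 8 markers fell, and their summed level ran from 1940 to 2100 CPM with sh-NC and from 1820 to 1830 with sh-SH2D1A. MZB1, a plasma cell marker and itself an ER co-chaperone, rose by 0.25 ± 0.06. The part of these differences in the chaperone result was not tested.

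**Figure D1:**
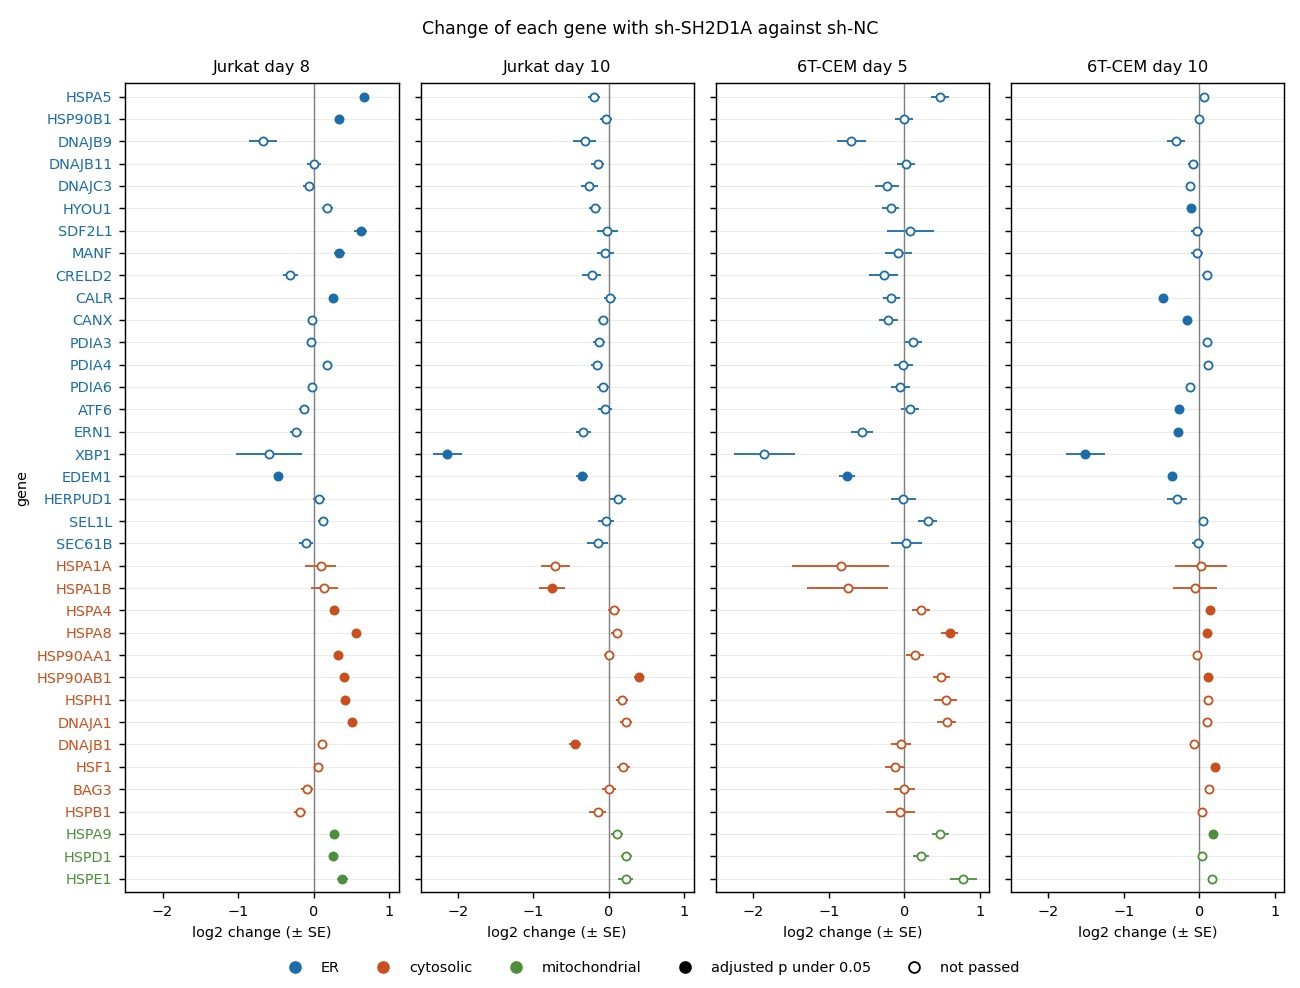
Log2 change with sh-SH2D1A against sh-NC (x axis, ± standard error) of each gene (y axis) in the 4 comparisons, coloured by compartment; filled points passed an adjusted p of 0.05. In Jurkat at day 8 the filled points lie to the right of 0 except EDEM1, and in 6T-CEM at day 10 the filled ER points lie to the left and the filled cytosolic and mitochondrial points to the right.

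HSPA5, the ER member of the HSP70 family and a regulator of all 3 stress sensors, gave the largest rise. It had 150 and 160 CPM in sh-NC libraries against 249 and 243 CPM in sh-SH2D1A libraries at Jurkat day 8. Both sh-SH2D1A libraries stood far above both sh-NC libraries, a log2 change of 0.66 ± 0.05, or 1.58-fold (adjusted p = 0.000728).

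SDF2L1, a partner of HSPA5 and its DNAJ co-chaperones, had 23.4 and 26.3 CPM in sh-NC libraries against 37.5 and 39.3 in sh-SH2D1A libraries, with no overlap, and rose by 0.62 ± 0.09 (adjusted p = 0.00504). The folding factor MANF (36.5 and 39.4 against 48 and 48.8 CPM) rose by 0.34 ± 0.07. HSP90B1 (GRP94), the HSP90 of the ER, went from 261 and 262 to 332 and 330 CPM, a rise of 0.33 ± 0.05. The lectin chaperone CALR, at 629 and 642 against 755 and 780 CPM, rose by 0.26 ± 0.05. In these 4 genes too the libraries with sh-SH2D1A were both above those with sh-NC.

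The remaining ER chaperones and isomerases did not pass the test. The HSPA5 co-chaperone DNAJB9 lay at 14.2 and 14.9 CPM in sh-NC libraries against 10.8 and 7.49 in sh-SH2D1A libraries (-0.67 ± 0.19, adjusted p = 0.054), and it overlaps PNPLA8 and THAP5 on the other strand, whose reads cannot be told apart where the counting used no strand. CRELD2, at -0.31 ± 0.10, did not pass either and overlaps ALG12 likewise. Values for HYOU1 (0.18 ± 0.07), an exchange factor for HSPA5, and for CANX (-0.02 ± 0.05), the membrane-bound partner of CALR, missed the threshold. The disulfide isomerases PDIA3, PDIA4 and PDIA6 lay at -0.03, 0.18 and -0.02, and none passed.

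In the cytosol HSPA8, DNAJA1, HSPH1, HSPA4, HSP90AB1 and HSP90AA1 rose, and the other 6 genes did not pass. HSPA8 (HSC70), the constitutive HSP70, had 782 and 809 CPM in sh-NC libraries against 1210 and 1160 in sh-SH2D1A libraries at Jurkat day 8. The groups were well apart, and the log2 change was 0.56 ± 0.05 (adjusted p = 0.000972). Its J-domain partner DNAJA1, from 212 and 218 to 308 and 308 CPM, rose by 0.51 ± 0.05. The exchange factors HSPH1 (HSP110) and HSPA4 rose by 0.42 ± 0.05 and 0.27 ± 0.05. Of the HSP90 pair, constitutive HSP90AB1 had 1130 and 1120 CPM with sh-NC and 1490 in each sh-SH2D1A library, a rise of 0.40 ± 0.04 (adjusted p = 0.00216). Stress-inducible HSP90AA1, at 780 and 783 against 982 and 977 CPM, rose by 0.32 ± 0.04.

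HSPA1A and HSPA1B, the strongly heat-inducible HSP70 genes, were at 3.15 and 3.44 CPM and at 5.09 and 5.67 CPM with sh-NC. With sh-SH2D1A they were at 3.33 and 3.73 CPM and at 5.64 and 6.29 CPM. These are near-identical copies between which reads may be split, so their single values are uncertain, and summed they gave 0.12 ± 0.15 (adjusted p = 0.661). DNAJB1 (0.11 ± 0.05), the small heat shock protein HSPB1 (-0.18 ± 0.08), the co-chaperone BAG3 (-0.09 ± 0.08) and HSF1 itself (0.06 ± 0.05) did not pass.

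The 3 mitochondrial chaperones were all called higher. HSPA9 (mortalin), the HSP70 of the import motor, had 281 and 292 CPM in sh-NC libraries against 348 and 345 in sh-SH2D1A libraries and rose by 0.27 ± 0.05. The chaperonin HSPD1 (HSP60), at 610 and 602 against 740 and 712 CPM, rose by 0.25 ± 0.05, and its lid HSPE1 (HSP10), at 65.4 and 72.9 against 89.5 and 92.1 CPM, by 0.38 ± 0.07. In each of the 3 both sh-SH2D1A libraries were above both sh-NC libraries. HSPE1 and HSPD1 are transcribed in opposite directions and their spans overlap, and the read-through gene HSPE1-MOB4 held 0.436% as many counts as HSPE1.

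The 15 calls were not equally firm. HSPA5, SDF2L1, EDEM1, HSPA8, HSP90AB1, HSPH1 and DNAJA1 kept theirs whichever of the 4 libraries was left out. Those of HSP90B1, MANF, CALR, HSPA4, HSP90AA1, HSPA9, HSPD1 and HSPE1 were lost without either sh-SH2D1A library, where 8 (replicate 1 left out) and 7 (replicate 2 left out) of the 36 passed. With all 16 libraries in the fit SDF2L1 (adjusted p = 0.0519) and HSPE1 (0.0542) did not pass, and with no filter on low counts MANF (0.0691), HSPD1 (0.0532) and HSPE1 (0.0543) did not.

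In Jurkat at day 10, 5 of the 36 genes passed, and 721 genes of all, against 2381 at day 8. HSP90AB1 rose, XBP1, EDEM1, HSPA1B and DNAJB1 fell, and the other 31 did not pass, where 1.26% of all genes rose and 2.52% fell. With no filter on low counts none of the 36, and no gene at all, passed (3533 at an unadjusted p under 0.05). DESeq2 called 6 of the 36 and 1052 genes of all. The median log2 change was -0.15 over the ER genes and 0.10 over the cytosolic and mitochondrial genes, beside 0.00 over all genes. HSP90AB1, at 880 and 894 CPM in sh-NC libraries against 1190 and 1150 in sh-SH2D1A libraries, rose by 0.40 ± 0.07 (adjusted p = 0.0111), the same value as at day 8. HSPA1B went from 14.6 and 13.1 to 8.9 and 7.52 CPM, which is -0.75 ± 0.17 (adjusted p = 0.0375), and its copy HSPA1A from 7.8 and 7.18 to 4.68 and 4.46 CPM (-0.71 ± 0.19, adjusted p = 0.0766). Summed, the copies fell by 0.73 (± 0.14, adjusted p = 0.0193). The HSP70 co-chaperone DNAJB1 (142 and 141 against 106 and 101 CPM) fell by 0.45 (± 0.08, adjusted p = 0.0121). It shares its place with TECR on the other strand.

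At Jurkat day 10, 3 of 8 T lineage markers fell. Of the 3 plasma cell markers tested, with log2 changes from -0.03 to 1.45, MZB1 rose by 0.45 ± 0.10. The part of these markers in the result was not tested. In HSP90AB1, HSPA1B, HSPA1A and DNAJB1 the day 10 sh-SH2D1A libraries did not overlap the sh-NC libraries. The sh-NC libraries themselves had moved from day 8: HSPA1B from 5.09 and 5.67 to 14.6 and 13.1 CPM, and DNAJB1 from 108 and 104 to 142 and 141 CPM. With sh-SH2D1A DNAJB1 stood at 114 and 116 CPM at day 8 and 106 and 101 at day 10. The call of HSPA1B was lost without sh-NC replicate 1 (4 genes passed) and without sh-SH2D1A replicate 2 (4 passed), and that of EDEM1 without sh-NC replicate 2 or sh-SH2D1A replicate 1.

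The test of the change at day 10 minus that at day 8 called 1 of the 36 genes, HSPA5, which was also the only one called among 22032 genes (0% higher, 0.00454% lower), with 1468 genes at an unadjusted p under 0.05. HSPA5 had 168 and 160 CPM in sh-NC libraries against 148 and 136 in sh-SH2D1A libraries at day 10. Both day 10 libraries with sh-SH2D1A were thus below their controls (-0.20 ± 0.08, adjusted p = 0.223), where those at day 8 were above. The difference was -0.87 ± 0.10 (adjusted p = 0.0141), and between days the sh-NC libraries differed by 0.08 ± 0.07. The DESeq2 Wald test called 62 genes for this difference, among them HSPA5, HSPA8 and DNAJB1. The call of HSPA5 was lost on leaving out either sh-NC library of day 8 (adjusted p = 0.0916 and 0.0667), sh-SH2D1A replicate 2 of day 8 (0.0557), sh-NC replicate 1 of day 10 (0.0712) or sh-SH2D1A replicate 2 of day 10 (0.114), while the value stayed between -0.94 and -0.80.

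For the other chaperones that rose at day 8 the difference between days did not pass: -0.65 ± 0.25 for SDF2L1 (adjusted p = 0.674), -0.48 ± 0.08 for HSPA8 (0.184), -0.30 ± 0.10 for DNAJA1 (0.566), -0.39 ± 0.11 for HSP90B1 (0.463) and -0.01 ± 0.08 for HSP90AB1 (1). Of the 36 differences 8 were above 0, and their median was -0.17 beside 0.00 over all genes. At day 10 sh-SH2D1A left SDF2L1 at 26.1 and 23.7 CPM against 28.4 and 22 with sh-NC, HSPA8 at 874 and 849 against 800 and 816, and DNAJA1 at 250 and 242 against 209 and 211. Only SDF2L1 of these 3 overlapped its controls. For SH2D1A itself the difference between days was 0.11 ± 0.13 (adjusted p = 0.952).

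**Figure D2:**
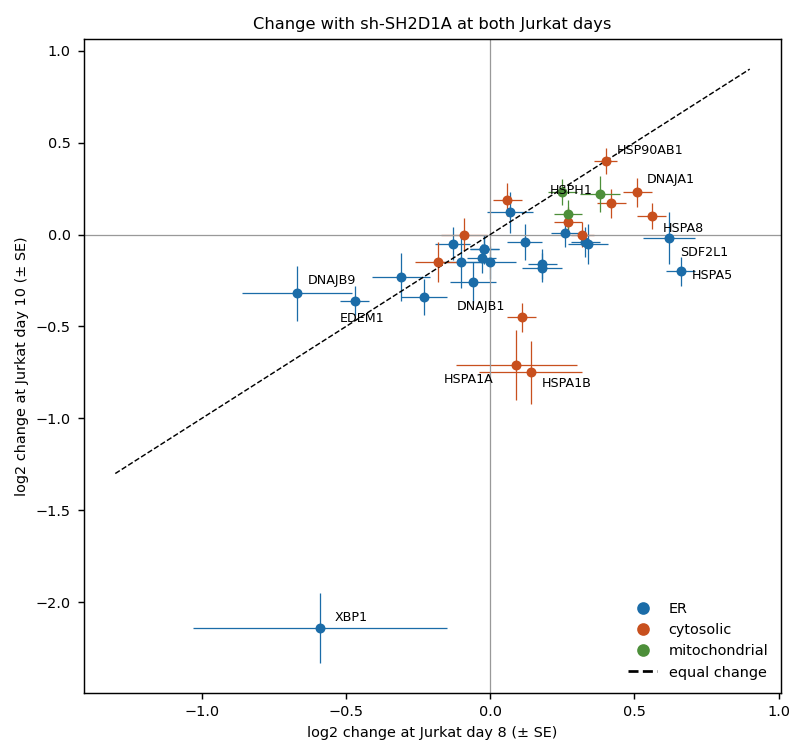
Log2 change with sh-SH2D1A at Jurkat day 8 (x axis) against day 10 (y axis) for the 36 genes, with standard errors on both and a dashed line of equal change. HSP90AB1 (0.40 and 0.40) lies on the line, HSPA5 (0.66 and -0.20) farthest below it among the chaperones that rose at day 8, and XBP1 (-0.59 and -2.14) at the bottom with wide errors.

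In 6T-CEM at day 5 HSPA8 rose and EDEM1 fell, where 0.606% of all genes rose and 1.51% fell. HSPA8 had 587 and 616 CPM in sh-NC libraries against 852 and 954 in sh-SH2D1A libraries, which is a log2 change of 0.60 ± 0.11 (adjusted p = 0.0294). The groups were apart, and so they were in several genes that missed the threshold. HSP90AB1 had 932 CPM in each sh-NC library against 1230 and 1380 (0.49 ± 0.11, adjusted p = 0.0507), and DNAJA1 165 and 170 against 225 and 265 CPM (0.56 ± 0.12, adjusted p = 0.0549). HSPE1 had 24.5 and 26.9 against 37.7 and 49.9 CPM (0.78 ± 0.18, adjusted p = 0.0618), and HSPA5 141 and 151 against 188 and 213 CPM (0.47 ± 0.12, adjusted p = 0.0879). In each of these the second sh-SH2D1A library was the higher. On the low side, DNAJB9 had 24.9 and 26.2 CPM in sh-NC libraries against 14.2 and 17.1 (-0.70 ± 0.19, adjusted p = 0.0974) and ERN1 52.6 and 54 against 35.1 and 36.4 CPM (-0.56 ± 0.14, adjusted p = 0.0782), with no overlap. At an unadjusted p under 0.05, 2 ER genes were higher and 4 lower, and 6 cytosolic and mitochondrial genes were higher and 0 lower. Of all 19482 genes tested there, 3289 met that threshold in either direction.

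The count of calls at 6T-CEM day 5 changed with the libraries entered. With sh-SH2D1A replicate 1 left out 14 of the 36 passed, with replicate 2 left out 13, and without sh-NC replicate 1 or 2 only XBP1 passed, so that HSPA8 and EDEM1 lost their calls. Calls over all genes moved likewise, from 412 to 2865 without sh-SH2D1A replicate 1 and 2139 without replicate 2. DESeq2 called 11 of the 36, 7 higher and 4 lower, and 1118 genes of all. With all 16 libraries in the fit edgeR called 12, 8 higher and 4 lower, and 3108 genes of all. Mitochondrially encoded genes held 7.98 and 9.19% of counts in the sh-SH2D1A libraries and 7.44 and 7.63% in the sh-NC libraries, and their part in the result was not tested. The median log2 change was -0.05 over the ER genes and 0.22 over the cytosolic and mitochondrial genes, beside 0.00 over all genes.

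In 6T-CEM at day 10 the calls split by compartment. In edgeR's test 0 of 21 ER genes rose and 7 fell, while 5 of 15 cytosolic and mitochondrial genes rose and 0 fell. Over all genes 6.61% rose and 7.42% fell. At an unadjusted p under 0.05, 2 ER genes were higher and 10 lower, and 7 of the 15 were higher and 0 lower. That threshold was met by 5531 of all 19610 genes tested, in either direction. DESeq2 called 1 ER gene higher and 7 lower, and 6 of the 15 higher and 0 lower, among 3330 genes of all. The rises were lost with no filter on low counts, where CALR, ATF6 and EDEM1 passed, and with all 16 libraries in the fit, where CALR and EDEM1 passed. CALR had 1330 and 1340 CPM in sh-NC libraries against 969 and 948 in sh-SH2D1A libraries. This drop of 0.48 on the log2 scale (± 0.03, adjusted p = 2.08e-05) had groups far apart and held on leaving out any library.

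The other falls at 6T-CEM day 10 were ATF6, from 127 and 131 to 104 and 110 CPM (-0.27 ± 0.04), ERN1, from 46.9 and 45 to 36.6 and 38.7 CPM (-0.28 ± 0.06), CANX, from 376 and 383 to 331 and 345 CPM (-0.16 ± 0.03), HYOU1, from 321 and 320 to 293 and 300 CPM (-0.11 ± 0.03), XBP1 and EDEM1. Of the rises, HSF1 had 133 and 139 against 159 and 155 CPM (0.21 ± 0.04, adjusted p = 0.00861) and overlaps DGAT1 on the other strand. HSPA9 rose by 0.18 ± 0.03 and HSPA4 by 0.14 ± 0.03. HSP90AB1, at 1430 and 1400 against 1550 and 1500 CPM, rose by 0.11 ± 0.03, and HSPA8, at 1290 and 1300 against 1420 and 1360 CPM, by 0.10 ± 0.03 (adjusted p = 0.0439). No pair of groups overlapped in these genes, but the changes were small, and 6 of the 36 passed, 1 of them higher, without sh-NC replicate 1 and likewise without replicate 2. CALR, ATF6, XBP1 and EDEM1 kept their calls whichever library was left out, and the call of HYOU1 was lost each time. As at Jurkat day 8, T lineage markers moved in the same libraries: 4 of 8 fell and 1 rose, and their part in the result was not tested.

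Between the days of 6T-CEM, the changes of HSPA8 (-0.49 ± 0.08, adjusted p = 0.0181), DNAJA1 (-0.46 ± 0.10, adjusted p = 0.0493) and HSP90AB1 (-0.38 ± 0.08, adjusted p = 0.0476) were smaller at day 10 than at day 5, where 0.404% of all genes had a higher and 0.277% a lower difference. All 3 calls were lost with only the 8 libraries of 6T-CEM in the fit, with 0 of the 36 and 1 gene of all called (2157 at an unadjusted p under 0.05). DESeq2 called 7 of the 36 and 602 genes of all. The 3 edgeR calls were lost likewise without any 1 of the 4 day 10 libraries or sh-NC replicate 1 of day 5. HSPA8 alone passed without sh-NC replicate 2 of day 5 and with DESeq2 size factors, and 11 were called without sh-SH2D1A replicate 1 of day 5. Between the lines at day 10, the change of CALR was 0.49 ± 0.08 higher in Jurkat (adjusted p = 0.0124), the only call among the 36, where 0.517% of all genes had a higher and 0.295% a lower difference. In Jurkat at day 10 CALR had 658 and 606 CPM in sh-NC libraries against 657 and 616 in sh-SH2D1A libraries, so its groups overlapped there (0.01 ± 0.08). That call was lost without any 1 of the 4 libraries of 6T-CEM, and without Jurkat sh-NC replicate 2 or sh-SH2D1A replicate 1.

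**Figure D3:**
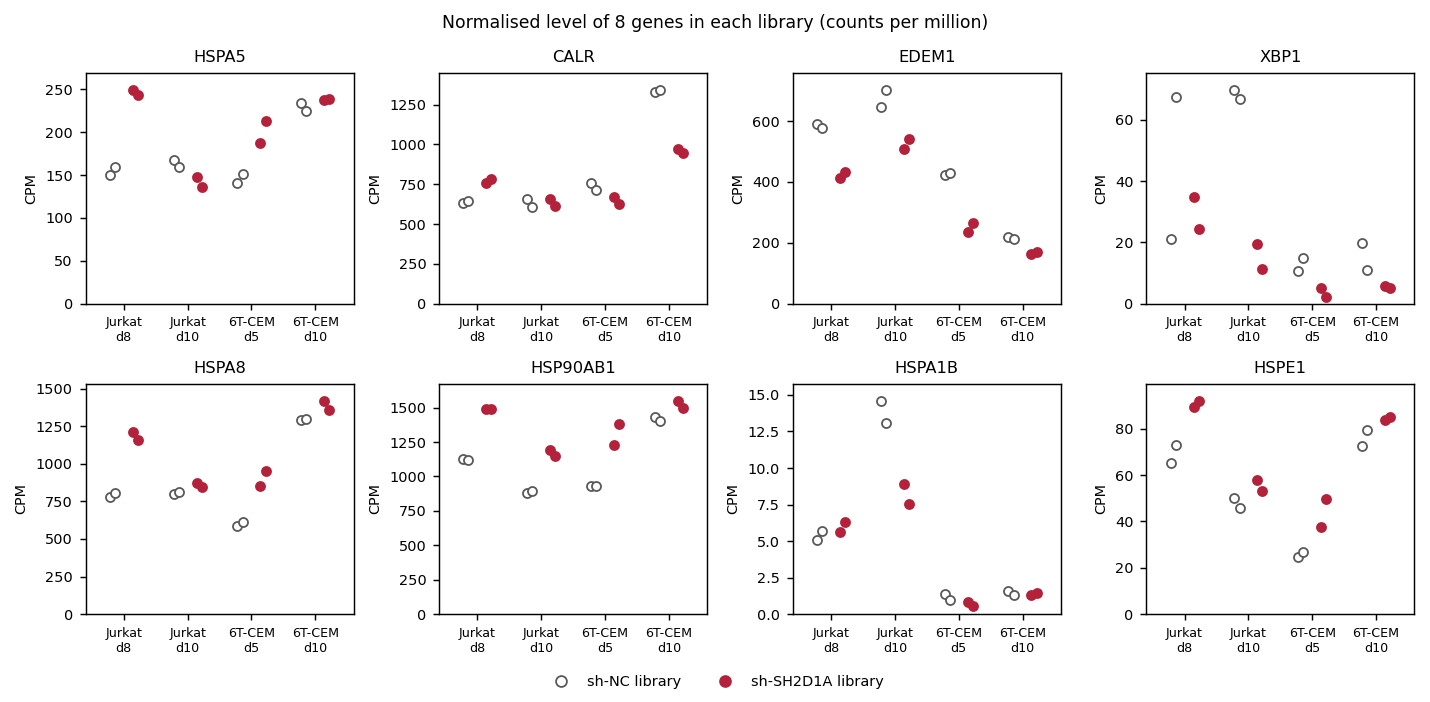
CPM (y axis, linear from 0) of 8 genes in each of the 16 libraries, by line and day (x axis); open points are sh-NC and filled points sh-SH2D1A libraries. EDEM1 is lower with sh-SH2D1A at all 4 points, HSPA5 is higher at Jurkat day 8 and lower at day 10, and the open XBP1 points of Jurkat day 8 lie at 21.1 and 67.4 CPM.

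EDEM1 was the one member that fell in all 4 comparisons. It encodes a lectin that takes misfolded glycoproteins out of the folding cycle for degradation and lies at chr3:5187646-5219957 on the plus strand (hg38). It had 590 and 576 CPM with sh-NC against 413 and 433 with sh-SH2D1A in Jurkat at day 8 (log2 change -0.47 ± 0.05, adjusted p = 0.0019), and 646 and 701 against 507 and 540 at day 10 (-0.36 ± 0.08, adjusted p = 0.0299). In 6T-CEM it had 423 and 429 against 234 and 265 CPM at day 5 (-0.76 ± 0.11, adjusted p = 0.0138), and 219 and 211 against 163 and 171 at day 10 (-0.36 ± 0.04, adjusted p = 0.000613). No sh-SH2D1A library reached its controls at any of the 4 points. The tests of a difference in the fall did not pass between days or lines: 0.10 ± 0.10 between the Jurkat days (adjusted p = 0.944), 0.41 ± 0.10 between the 6T-CEM days (0.0737) and 0.00 ± 0.10 between the lines at day 10 (1). The 6T-CEM day difference was called by DESeq2 (adjusted p = 0.0048), and by edgeR without sh-SH2D1A replicate 1 (0.0388) or 2 (0.018) of day 5. No other gene for degradation or translocation among the members (HERPUD1, SEL1L, SEC61B) passed in any knockdown comparison.

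XBP1, the transcription factor of the IRE1 branch, gave the lowest fitted value of the 36 genes at Jurkat day 10 and at both 6T-CEM days. It had 69.6 and 66.9 CPM in sh-NC libraries against 19.5 and 11.3 in sh-SH2D1A libraries in Jurkat at day 10, a log2 change of -2.14 ± 0.19 (adjusted p = 0.000315). In 6T-CEM it had 19.8 and 11.1 against 5.79 and 5.02 CPM at day 10 (-1.51 ± 0.26, adjusted p = 0.00656), and 10.7 and 14.8 against 4.98 and 2 CPM at day 5 (-1.85 ± 0.40, adjusted p = 0.0507). The groups did not overlap at these 3 points, with sh-SH2D1A lower.

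In Jurkat at day 8 the XBP1 groups overlapped: the sh-NC libraries had 21.1 and 67.4 CPM and the sh-SH2D1A libraries 34.7 and 24.2 CPM. The change there was -0.59 ± 0.44 (adjusted p = 0.432), and it turned with the library left out, from -1.20 ± 0.15 without sh-NC replicate 1 (adjusted p = 0.000516) to 0.47 ± 0.18 without sh-NC replicate 2 (adjusted p = 0.11). The difference between the Jurkat days did not pass (-1.56 ± 0.64, adjusted p = 0.702). ERN1, whose product splices the XBP1 message, was lower with sh-SH2D1A at each point by the fitted values. They were -0.23, -0.34, -0.56 and -0.28 in the order Jurkat days 8 and 10, 6T-CEM days 5 and 10, and the last passed. This was not particular to XBP1 and ERN1: DNAJB9, DNAJC3, CANX, PDIA6 and EDEM1 were also above 0 at none of the 4 points.

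Across the 4 knockdown comparisons 13 of the 36 genes passed in none, 16 in 1, 4 in 2, 2 in 3 and EDEM1 in all 4. Of the 17521 genes tested in all 4 comparisons, 75.8% passed in none, 16.7% in 1, 4.83% in 2, 1.81% in 3 and 0.788% in all 4. HSPA8 and HSP90AB1 rose in 3 comparisons each, and CALR was called both ways, up in Jurkat at day 8 and down in 6T-CEM at day 10. At 6T-CEM day 10 the call of HSPA8 held in 3 of 7 other settings and that of HSP90AB1 in 5 of 7. Each of these 2 calls held in 1 of the 4 fits with a library left out. The knockdown and control libraries of each comparison were its own, so no control was shared among these 4.

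Summed over genes, the compartments moved by different amounts. The cytosolic sum went from 3600 and 3650 CPM to 4790 and 4750 in Jurkat at day 8 and from 3360 and 3460 to 3820 and 3730 at day 10. In 6T-CEM it went from 3260 and 3370 to 3940 and 4500 CPM at day 5 and from 4960 and 4940 to 5260 and 5120 at day 10. Every sh-SH2D1A library was above its controls at the 4 points. HSP90AB1, HSPA8 and HSP90AA1 make up most of this sum. The ER sum was 3150 and 3230 CPM with sh-NC against 3320 and 3370 at Jurkat day 8, but lower with sh-SH2D1A at the other 3 points: 3270 and 3320 against 2990 and 2930, 3340 and 3390 against 2950 and 3180, and 3890 and 3870 against 3350 and 3360. Sums were not tested.

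**Figure D4:**
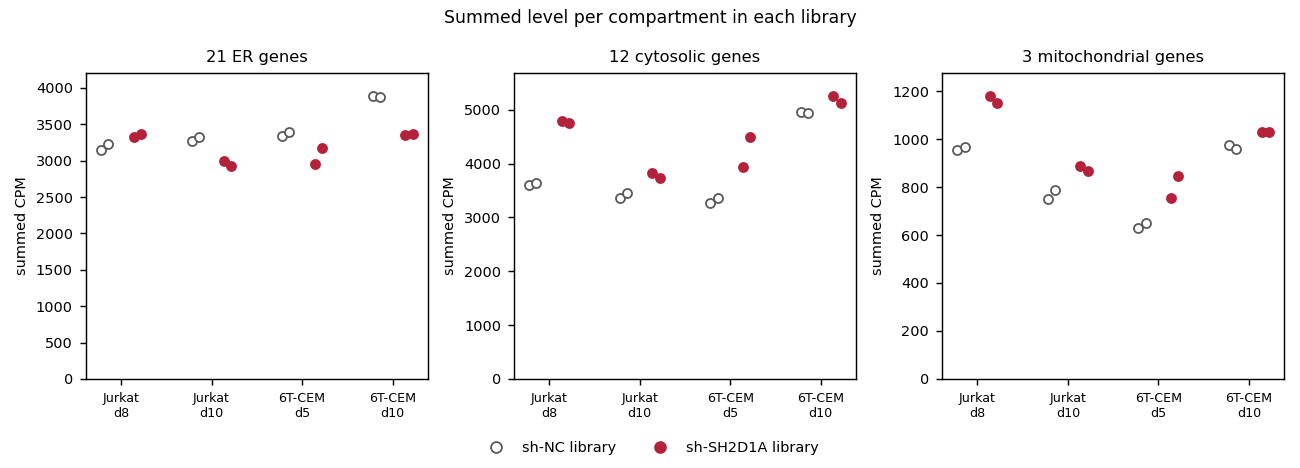
Summed CPM (y axis, linear from 0) of the ER, cytosolic and mitochondrial genes in each library, by line and day (x axis); open points are sh-NC and filled points sh-SH2D1A libraries. Cytosolic and mitochondrial sums are higher with sh-SH2D1A at all 4 points, and the ER sum is higher only at Jurkat day 8.

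Of 103 further genes of protein folding and stress responses, 12 rose and 5 fell in Jurkat at day 8, where 5.23% of all genes tested rose and 7.13% fell. In that comparison 0 of 37 other ER quality control genes rose and 3 fell: DERL1 (-0.35 ± 0.06) of the export channel, the signal peptidase subunit SPCS3 (-0.26 ± 0.05) and KDELR2 (-0.34 ± 0.07), a receptor that returns ER proteins. Of 11 tested PERK and ATF4 genes 3 rose, CHAC1 by 0.93 ± 0.15, SESN2 by 0.48 ± 0.12 and ASNS by 0.27 ± 0.07. Of 27 genes listed as other cytosolic chaperones 4 rose and 1 fell. The largest of these changes was that of SERPINH1 (0.70 ± 0.13), which stands in that list although its product is a collagen chaperone of the ER. Of 14 genes of the TRiC chaperonin and prefoldin CCT3 (0.38 ± 0.05) and CCT6A (0.24 ± 0.05) rose and PFDN5 fell. In mitochondria 3 of 12 rose, among them the import genes TIMM44 (0.36 ± 0.06) and GRPEL1 (0.36 ± 0.07).

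In Jurkat at day 10 CCT3 rose by 0.48 ± 0.08 and VLDLR, listed with the ATF4 targets, fell by 0.50 (± 0.09), with no other call in these lists. In 6T-CEM SERPINH1 rose at both days, by 1.04 ± 0.20 and 1.20 ± 0.10, and the HSP110 relative HSPA4L fell at both, with -0.89 ± 0.14 and -0.64 ± 0.04. At 6T-CEM day 10 6 of the 103 rose and 16 fell, where 6.61% of all genes rose and 7.42% fell. Of the 37 other ER genes 3 rose and 7 fell, including KDELR2 (-0.40 ± 0.05) and SPCS3 (-0.29 ± 0.05) again. In the list of cytosolic chaperones, SERPINH1 and HSPA4L included, 2 of 27 rose and 5 fell, and of the TRiC and prefoldin genes 1 of 14 rose and 2 fell. Of the mitochondrial genes 0 of 12 rose and 1 fell, and of the PERK and ATF4 genes 0 of 11 rose and ASNS fell (-0.41 ± 0.10), having risen in Jurkat at day 8. In the differences of change, edgeR called 0 of these 103 further genes. At an unadjusted p under 0.05 there were 12 (Jurkat days), 15 (6T-CEM days) and 18 (lines). Over all 22032 genes 1468, 2892 and 2133 met that threshold in the same order. Of the 103, DESeq2 called 0, 2 (ASNS and LONP1) and 3 (HSPA4L, SERPINH1 and CCT3).

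The sh-NC groups show how the genes sit without the knockdown. From day 5 to day 10 of 6T-CEM 17 of the 36 were higher and 6 lower, where 19.3% of all genes were higher and 20.6% lower. SDF2L1 went from 6.03 and 5.66 to 31 and 31.6 CPM (log2 difference 2.42 ± 0.20, adjusted p = 6.28e-07) and HSPE1 from 24.5 and 26.9 to 72.6 and 79.3 CPM (1.56 ± 0.12). HSPA8, CALR and HSPA5 were higher by 1.11 ± 0.06, 0.87 ± 0.06 and 0.65 ± 0.07. So were SEC61B (1.18 ± 0.14), a subunit of the translocation channel, MANF (0.95 ± 0.10), HYOU1 (0.72 ± 0.07) and PDIA4 (0.52 ± 0.08). In the cytosol HSPB1 (0.88 ± 0.13), DNAJA1 (0.77 ± 0.07), DNAJB1 (0.61 ± 0.07), HSP90AB1 (0.60 ± 0.06), HSF1 (0.36 ± 0.08) and HSP90AA1 (0.30 ± 0.08) were higher, and in mitochondria HSPA9 (0.56 ± 0.06) and HSPD1 (0.53 ± 0.06). Of the 15 cytosolic and mitochondrial genes 10 were higher and none lower, with 3 of 3 mitochondrial genes among them. The ER genes split, 7 higher and 6 lower. On the low side were EDEM1 (-0.99 ± 0.07), DNAJB9 (-0.82 ± 0.16), DNAJC3 (-0.64 ± 0.11), ATF6 (-0.41 ± 0.09), SEL1L (-0.37 ± 0.10) and ERN1 (-0.21 ± 0.08). The call of ERN1 held in 4 of 7 other settings and was lost whichever of the 4 libraries was left out. That of SEL1L held in 1 of the 4 fits with a library left out.

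In Jurkat sh-NC 5 of the 36 were higher at day 10 than at day 8 and 3 lower, where 1.83% of all genes were higher and 1.57% lower. HSPA1B (1.36 ± 0.22), HSPA1A (1.18 ± 0.25), DNAJB1 (0.42 ± 0.07), BAG3 (0.37 ± 0.08) and ERN1 (0.40 ± 0.08) were higher, and HSPE1 (-0.53 ± 0.11), HSPD1 (-0.38 ± 0.06) and HSP90AB1 (-0.34 ± 0.06) lower. Of the 12 cytosolic genes 4 were higher and 1 lower, and stress-inducible HSP90AA1 was not called. Beside them 5 of 14 TRiC and prefoldin genes were lower, led by CCT2 (-0.47 ± 0.07), and none higher. Most of these calls were fragile: 1 of 8 was left without day 8 replicate 2, that of HSPD1, 5 without day 8 replicate 1, and 4 without either day 10 library.

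Between lines at day 10, Jurkat sh-NC had 7 of the 36 genes higher than 6T-CEM sh-NC and 17 lower, where 18.4% of all genes were higher and 18.2% lower. HSPA1B and HSPA1A differed most, at 14.6 and 13.1 against 1.58 and 1.32 CPM (3.25 ± 0.24) and at 7.8 and 7.18 against 1.04 and 0.911 CPM (2.93 ± 0.28). XBP1 (2.15 ± 0.46), EDEM1 (1.65 ± 0.07) and HSPH1 (1.19 ± 0.10) were also higher in Jurkat, as were HSF1 (0.25 ± 0.08) and PDIA3 (0.19 ± 0.06). Lower in Jurkat were CALR (-1.08 ± 0.06), HYOU1 (-1.03 ± 0.07), HSP90AA1 (-0.79 ± 0.08), HSPA8 (-0.68 ± 0.06) and HSPA5 (-0.49 ± 0.07). HSP90AB1 (-0.67 ± 0.06), DNAJA1 (-0.44 ± 0.07), HSPA4 (-0.27 ± 0.07) and the mitochondrial HSPE1 (-0.66 ± 0.11), HSPD1 (-0.35 ± 0.06) and HSPA9 (-0.23 ± 0.06) were lower as well. Also lower were HSP90B1 (-0.38 ± 0.08), DNAJC3 (-0.37 ± 0.11), SEL1L (-0.41 ± 0.10), PDIA4 (-0.31 ± 0.08), ATF6 (-0.27 ± 0.09) and DNAJB11 (-0.24 ± 0.08), which overlaps TBCCD1 on the other strand. No ER chaperone was called higher in Jurkat and 6 of 11 were lower. The calls of PDIA3 and DNAJB11 were lost with no filter on low counts and whichever of the 4 libraries was left out. Those of HSF1, ATF6 and DNAJC3 held in 1 of the 4 fits with a library left out.

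**Figure D5:**
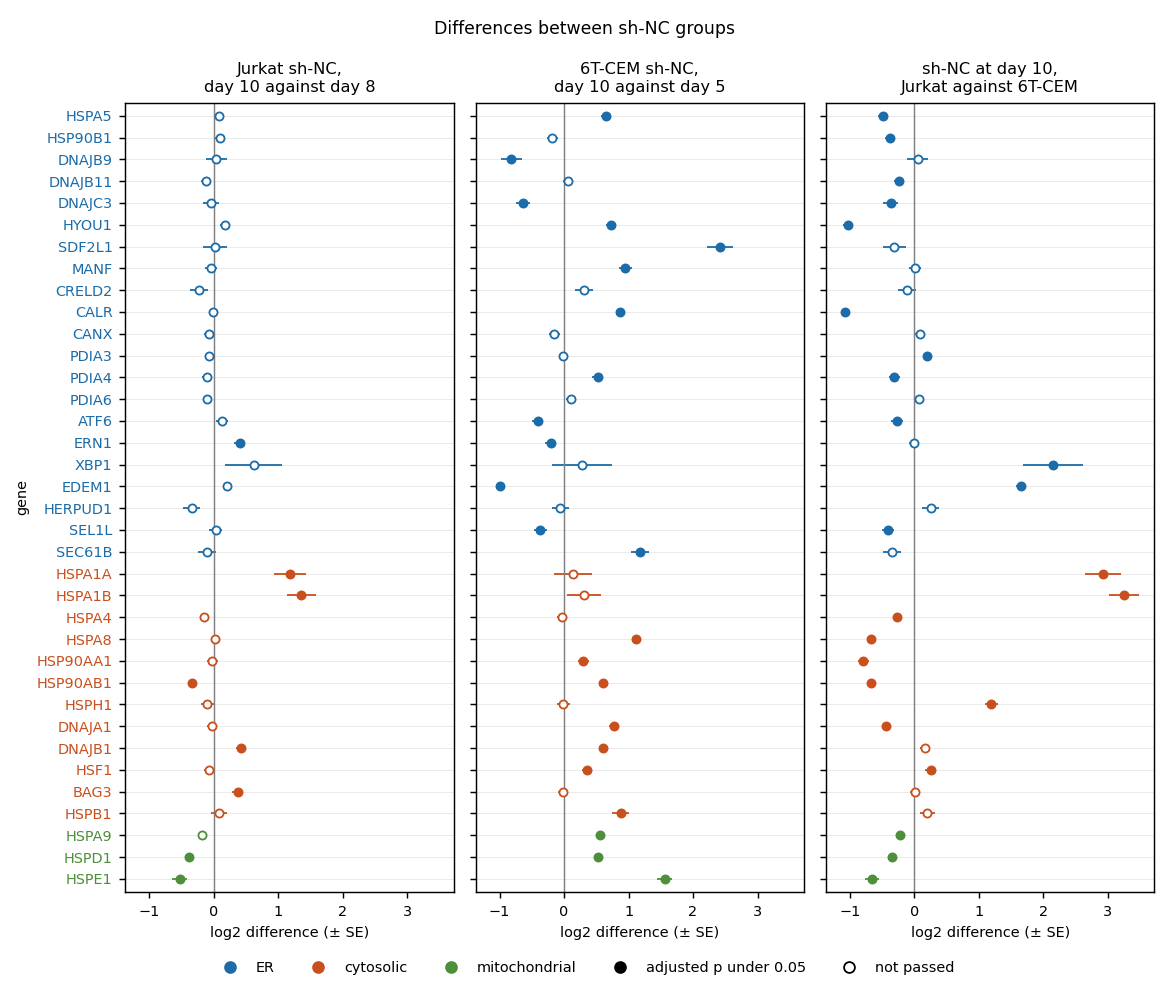
Log2 difference between sh-NC groups (x axis, ± standard error) of each gene (y axis), for the days of Jurkat, the days of 6T-CEM and the lines at day 10; filled points passed an adjusted p of 0.05. HSPA1A and HSPA1B are the points farthest right in the first and last panels, and SDF2L1 (2.42) in the middle one.

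Per length of exons, HSPA8 and HSP90AB1 stood highest in their families in both lines. In the day 10 sh-NC groups the mean level of HSPA8 was 162 RPKM (here counts relative to the library total, without the TMM factors, per kilobase of exon) in Jurkat and 275 in 6T-CEM, above HSPA5 (40.7 and 60.4 RPKM), HSPA4 (31.6 and 40.4) and HSPA9 (29.8 and 36.9). HSPA1B (5.32 and 0.591 RPKM) and HSPA1A (2.93 and 0.404) stood lowest. HSP90AB1 had 289 RPKM in Jurkat and 487 in 6T-CEM, above HSP90AA1 (143 and 261) and HSP90B1 (57.3 and 78.9).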

How the data were processed

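Total RNA from TRIzol was sequenced from TruSeq libraries on a NovaSeq instrument, per the labels' protocols, and HISAT2 2.2.0, StringTie and the hg38 build appear in the submitters' processing notes. The values deposited by the authors are raw counts per Ensembl gene, whole numbers in 4 tables, not normalised. How reads were counted, with which strand setting and annotation, is not given in the sources used here. All 16 libraries were used, in the 8 groups the labels give. Totals set the floors stated in the report, for counting error only.

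In R 4.3.3, edgeR 4.0.16 was run on each table of 4 libraries (filterByExpr with a minimum count of 10, TMM, glmQLFit, two-sided quasi-likelihood F-test, Benjamini-Hochberg adjustment over all genes tested, calls at 0.05). Differences between days, lines and sh-NC groups came from 1 fit of all 16 libraries with 8 group means. The standard error is the absolute log2 change over the root of F. Alternatives used DESeq2 1.42.0 size factors and Wald test, no filter, a stricter filter, a replicate block, other libraries in the fit, close copies summed, and each library left out in turn. The code was tested on simulated data. RPKM were computed here from unscaled library totals over GENCODE 29 exon lengths. Identifiers without a symbol held 1.86 to 2.48% of counts.

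Members, lists and tests were chosen with earlier results of these data known. All 36 members were named in every comparison in which they passed, and of each further list up to 4 genes with the lowest adjusted p. The protein comparison planned in the design was not run here.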

Additional observations from a re-analysis of the deposited data

Results flagged for a closer look

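A test of the difference itself singled out 5 results. The change of HSPA5 with sh-SH2D1A differed between Jurkat days by -0.87 ± 0.10 (edgeR, adjusted p = 0.0141), from 0.66 at day 8 to -0.20 at day 10. Between the 6T-CEM days the change of HSPA8 differed by -0.49 ± 0.08 (adjusted p = 0.0181), that of DNAJA1 by -0.46 ± 0.10 (adjusted p = 0.0493) and that of HSP90AB1 by -0.38 ± 0.08 (adjusted p = 0.0476). Between the lines at day 10 the change of CALR differed by 0.49 ± 0.08 (adjusted p = 0.0124). Over all 22032 genes these tests called 1 (Jurkat days), 150 (6T-CEM days) and 179 (lines). Each of the 5 calls was lost on leaving out some single libraries. Those between the 6T-CEM days were also lost with only the libraries of 6T-CEM in the fit. Day and count table are the same split and cannot be told apart.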

How the results depend on the processing

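Counts here are of the 36 genes called, in the order Jurkat days 8 and 10, 6T-CEM days 5 and 10, the Jurkat day, 6T-CEM day and line differences of change, and the Jurkat day, 6T-CEM day and line differences of sh-NC: 15, 5, 2, 12, 1, 3, 1, 8, 23 and 24. Counts stayed within 1.5 times of these except as follows. With DESeq2 size factors the 6T-CEM day difference gave 1. With no filter, Jurkat day 10 gave 0 (0 genes of all) and 6T-CEM day 10 gave 3. The stricter filter gave 4 at 6T-CEM day 5. The DESeq2 Wald test gave 11 at 6T-CEM day 5, and 3, 7 and 3 in the differences of change. All 16 libraries in the fit gave 12 at 6T-CEM day 5 and 2 at 6T-CEM day 10. Only the named groups in the fit gave 0 in the 6T-CEM day difference and 2 in the line difference. The cause was not tested.

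A replicate block gave 15, 8, 12, 10, 1, 2, 1, 8, 23 and 24. The labels do not say whether libraries of equal number share more than that number. Over 22032 genes their deviations from group means correlated weakly, at 0.0138, 0.0589, 0.0615 and 0.0102 in the order of the knockdown comparisons. With the block, calls over all genes rose most where these values were highest, in Jurkat at day 10 (721 to 1423) and 6T-CEM at day 5 (412 to 2188). They fell in Jurkat at day 8 (2381 to 1797) and changed little in 6T-CEM at day 10 (2752 to 2796). Pairing was not tested further.

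Leaving out 1 library gave 7 to 18, 4, 1 to 14, 6 to 10, 0 to 1, 0 to 11, 0 to 1, 1 to 5, 21 to 22 and 17 to 22. A lone library was assumed to vary like the other groups. Of 94 called gene results none reversed in any setting. Over all genes, calls for Jurkat days 8 and 10 and 6T-CEM days 5 and 10 were 2381, 721, 412 and 2752, against 873, 0, 324 and 1099 with no filter, 1797, 1423, 2188 and 2796 with the block, and 1323, 803, 3108 and 916 with all 16 libraries in the fit. The Jurkat day, 6T-CEM day and line differences of change gave 1, 150 and 179, against 62, 602 and 443 by DESeq2 and 4, 1 and 358 with the named groups. DESeq2 gave 1118 at 6T-CEM day 5 and, between the sh-NC days of Jurkat, 1561 against 749.

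With 2 libraries a group, the libraries of a group differed by more than counting error. The chi-square per degree of freedom was 4.65 to 22.1 over the groups. HSPA1A and HSPA1B had low counts in 6T-CEM, with HSPA1A at group means of 0.487 to 0.99 CPM. How far spread or depth limited the calls was not tested.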
